A study of Mus musculus with 96 samples.

Results

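Rectum was compared with intestine over all genes, from the 6 rectum and 6 intestine libraries among the 96 libraries of a multiplexed RNA-seq (MuSeq) survey of 16 mouse tissues. All columns of both tissues were taken. Each tissue had 3 libraries from wild-type mice and 3 from Scx-/- mice, and all mice were 3 weeks old, the age of weaning. Scx-/- mice lack *Scx*, the gene of scleraxis, a transcription factor of tendon and ligament cells, and the sources used here do not describe the allele. In MuSeq the RNA of each sample is given a barcode during reverse transcription, samples are pooled for library preparation, and reads come mainly from the 3′ ends of transcripts. The labels name the tissues only as rectum and intestine, without the stretch of intestine that was sampled, and whole organs were frozen, so each library holds mucosa, muscle wall and whatever adhered to them. In such bulk RNA, fewer cells of a type and less RNA per cell cannot be told apart. The labels do not say which samples came from the same mouse, so p-values measure the spread between these libraries.

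The small intestine is lined by villi of enterocytes, which split sugars and peptides at their brush border and package dietary fat with apolipoproteins, and by crypts that hold Paneth cells, a source of antimicrobial defensins. The rectum is the last stretch of the large intestine. Its epithelium has no villi, consists of colonocytes that recover salt and water and of many mucus-secreting goblet cells, and meets a stratified squamous epithelium at the anal canal, where skeletal muscle forms the outer sphincter. Position along the gut is marked by transcription factors, among them GATA factors in the upper intestine and the most posterior Hox genes in the hindgut.

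Total counts ran from 49764 to 314033 in rectum (median 150308) and from 26500 to 386890 in intestine (median 74441). The 3 Scx-/- intestine libraries were shallow, at 26500 to 54955 counts. Between 5309 and 10881 genes were detected per rectum library and 2916 to 9971 per intestine library. Every pair of replicates differed by more than counting error (chi-square per degree of freedom 8.30 to 14.9 over 12 pairs). *Scx* itself was listed at 0 in all 12 libraries, so it gives no check of the genotype labels here. Levels are given as counts scaled to a library total of 1000000 (CPM), with the lowest, highest and median of the 6 libraries of a tissue.

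Both tissue labels held intestinal epithelium by a list of 20 genes shared by the whole intestine (*Epcam*, *Cdh1*, *Lgals4* and others), whose summed level was 13356 to 17157 CPM in intestine and 13897 to 26545 CPM in 5 of the 6 rectum libraries. The library labelled Scx-/- rectum replicate 1 stood apart, with 3316 CPM. In that library the list of colonic epithelium was at 1474 CPM where the other rectum libraries were at 9429 to 26085, and smooth muscle genes were at 4968 CPM where the others were at 27204 to 37357. Squamous epithelium genes were higher there than in any other library, at 32042 CPM. Each list and named gene was therefore also computed without this library, and the value is given wherever it ended a call.

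Genes at 0 in all 12 libraries were removed, which left 15482 genes. With genotype as a covariate, the quasi-likelihood test of edgeR called 430 of them at a Benjamini-Hochberg adjusted p under 0.05, a background of 2.78%. Of these, 212 were higher in rectum (1.37% of the genes tested) and 218 were higher in intestine (1.41%). Without Scx-/- rectum replicate 1, 403 of 15261 genes were called (2.64%), 208 higher in rectum (1.36%) and 195 higher in intestine (1.28%), and 377 genes were called in both fits. Scaled to a list of epithelial genes in place of TMM, a method that scales libraries by the bulk of their genes, 361 genes were called (2.33%), 170 higher in rectum (1.10%) and 191 higher in intestine (1.23%). The epithelial list was at 3316 CPM in Scx-/- rectum replicate 1, so this scaling raised all values of that library against the others. It was not run without that library, whose part in the calls lost under it was not tested. At the thresholds the study used, an unadjusted p under 0.05 and a change over 2-fold, 2294 genes passed (14.8%), 1611 of them higher in rectum (10.4%) and 683 higher in intestine (4.41%). The 6 rectum values all exceeded the 6 intestine values for 165 genes (1.07%), and the reverse held for 158 (1.02%).

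**Figure D1:**
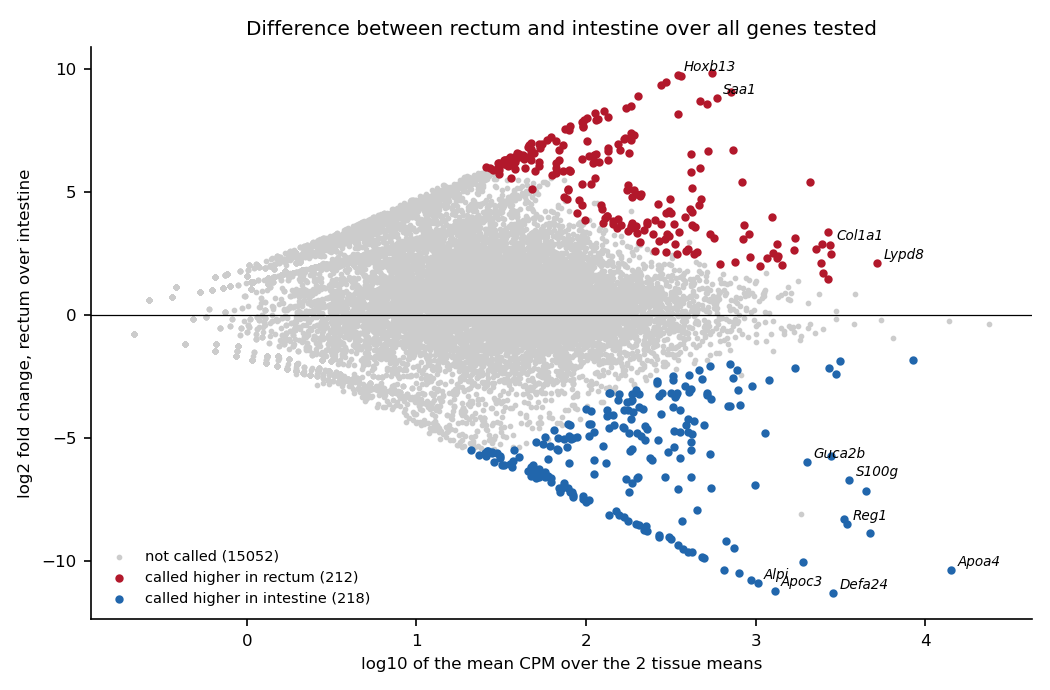
The log2 fold change of rectum over intestine (vertical axis) is plotted against the log10 of the mean CPM of the 2 tissues (horizontal axis) for the 15482 genes tested, with the 212 genes called higher in rectum in red and the 218 called higher in intestine in blue. The called genes reach further down, to *Defa24*, *Apoc3* and *Apoa4*, and grey points of low level fan out where genes have few counts. Values of genes with no read in a tissue depend on the small count that the fit adds.

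The bulk of the genes was not centred on 0. The median log2 fold change was 0.80 over all genes tested, 0.38 over the 4176 genes with a mean of at least 50 CPM and 0.08 over the 500 genes with a mean of at least 300 CPM. It was 0.76 with DESeq2's size factors, 0.71 with library totals and 0.38 in the fit of DESeq2, and it differed between genotypes, at -0.08 in the wild-type libraries alone and 2.10 in the Scx-/- libraries alone, where the shallow intestine libraries held many zeros. Lists of genes are therefore read beside the median of 0.80.

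The tissue difference could be computed in each genotype apart, from 3 against 3 libraries with none in common. In the wild-type libraries alone 240 of 13500 genes were called (1.78%), 84 higher in rectum (0.622%) and 156 higher in intestine (1.16%). In the Scx-/- libraries all 84 and 153 of the 156 had the same direction, and 28 and 52 were also called there. Of all genes in the Scx-/- libraries, 78% were higher in rectum and 22% higher in intestine, and the 84 and 156 are to be read against these shares. The 3 exceptions were *Ang4*, *Chpt1* and *Olfm4*. In the Scx-/- libraries alone 150 of 13693 genes were called (1.10%), 88 higher in rectum (0.643%) and 62 higher in intestine (0.453%). Of all genes in wild-type libraries, 48.9% were higher in rectum and 51.1% higher in intestine. Of the 62, all had the same direction in wild-type libraries and 52 were called. Of the 88, 71 could be fitted in wild-type libraries, 62 of those had the same direction and 28 were called. Among the 9 that went the other way were the keratins *Krt5*, *Krt14* and *Krt17* and the skin genes *Asprv1*, *Sfn* and *Ly6d*. Over the 4148 genes with at least 50 CPM, the differences in both genotypes had Pearson's r = 0.55 and Spearman's rho = 0.43, a description across genes, which are not independent replicates.

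**Figure D2:**
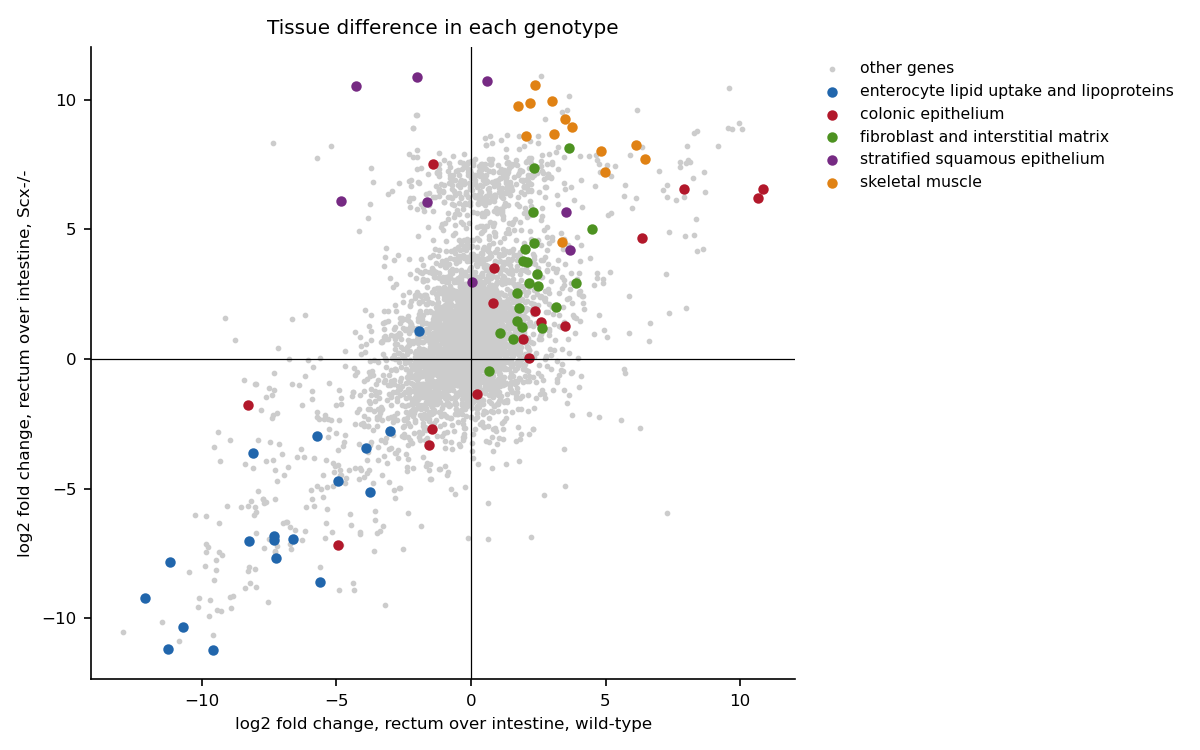
Each point is a gene with a mean of at least 50 CPM, placed by its log2 fold change of rectum over intestine in wild-type (horizontal axis) and Scx-/- libraries (vertical axis), which share no library. Lipid genes (blue) lie low on both axes and matrix genes (green) mostly high on both, while several squamous genes (purple) are high in Scx-/- libraries only. Values of genes with no read in a tissue depend on the small count that the fit adds.

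Genes of lipid uptake and lipoprotein assembly had the most members called of the 33 lists. Of 21 list members tested, 17 were higher in intestine and 0 in rectum, against 1.41% and 1.37% of all genes, and their median log2 fold change was -6.58 (-5.12 with genes at 0 in a tissue set to their bound). Their summed level was 26406 to 104151 CPM in intestine and 277 to 659 CPM in rectum. *Apoa4*, an apolipoprotein of newly made chylomicrons, was at 9988 to 57873 CPM (median 25085) in intestine and 0 to 55.2 CPM (median 10.3) in rectum (log2 fold change -10.36 ± 0.52, SE, adjusted p = 3.92e-85). *Apoa1*, the main protein of high-density lipoprotein, was at 4452 to 14113 CPM (median 9370.1) in intestine and 0 to 60.7 CPM (median 12.7) in rectum (log2 fold change -8.88 ± 0.59, SE, adjusted p = 1.26e-47). For both genes the lowest intestine library lay far above the highest rectum library. *Apoc3*, which slows the breakdown of triglyceride-rich particles, was at 1033 to 6097 CPM (median 2132) in intestine and at 0 in all 6 rectum libraries, at least 798-fold higher against the floor of 3 counts over the rectum group (adjusted p = 2.11e-31). *Mttp*, the transfer protein that loads lipid onto apolipoprotein B, followed the same pattern, at 738 to 2032 CPM (median 1749) against 0 (at least 461-fold higher, adjusted p = 1.61e-23). These 2 genes had no read in rectum at all. A member is called by edgeR unless DESeq2 is named. Over all genes, 10.4% were higher in rectum and 4.42% higher in intestine at an unadjusted p under 0.05, while DESeq2 gave an adjusted p for 6642 of the 15482 genes and called 5.24% and 4.47% of them. A DESeq2 count covers those genes alone. Over the 11 lists with members called higher in intestine and 0 in rectum, 10 of 157 members were higher in rectum at an unadjusted p under 0.05 and 1 by DESeq2. Over the 7 lists with the reverse, 2 of 135 members were higher in intestine at an unadjusted p under 0.05 and 1 by DESeq2.

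Fatty acid carriers belonged to the same group. *Fabp2*, the intestinal fatty acid binding protein, was at 3392 to 13027 CPM (median 9086) in intestine and 0 to 126 CPM (median 9.55) in rectum (log2 fold change -7.15 ± 0.58, SE, adjusted p = 1.84e-23). *Fabp1*, the liver form of the carrier, was at 1994 to 5497 CPM (median 3813) in intestine and had 2 counts in all rectum libraries together, a ratio of 1914-fold (95% exact counting interval 529 to 15814) with adjusted p = 4.62e-36. The fatty acid translocase *Cd36* (log2 fold change -0.45 ± 1.04) and the lipoprotein receptor *Scarb1* (-0.50 ± 1.41) were not called and their ranges overlapped. The number of lipid genes called stayed at 16 or 17 whichever library was left out, and DESeq2 called 17. In the wild-type libraries alone 10 members were called and neither *Apoa4* (log2 fold change -9.56, adjusted p = 0.106) nor *Fabp2* (-7.31, adjusted p = 0.409) was.

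Brush border enzymes and nutrient transporters showed 16 of 21 members higher in intestine and 0 in rectum, with a median log2 fold change of -4.78. *Alpi*, intestinal alkaline phosphatase, was at 566 to 3749 CPM (median 1704) in intestine and 0 in every rectum library (at least 499-fold higher, adjusted p = 1.85e-27). *Lct*, the lactase that splits milk sugar, was at 589 to 1333 CPM (median 1232) in intestine and 0 to 28.7 CPM (median 0) in rectum (log2 fold change -7.04 ± 0.85, SE, adjusted p = 8.59e-14). *Sis*, the sucrase-isomaltase that becomes abundant at weaning, was at 167 to 677 CPM (median 331) in intestine and 0 in rectum (at least 166-fold higher, adjusted p = 1.87e-08). All 6 intestine libraries lay above all 6 rectum libraries for each of these enzymes. *Mgam*, a maltase, was at 628 to 2366 CPM (median 1178) against 0 to 184 CPM (median 84.9) (log2 fold change -3.70 ± 0.65, SE, adjusted p = 1.93e-06). *Mep1b*, a subunit of the protease meprin, was at 377 to 1132 CPM (median 821) against 0 to 132 CPM (median 10.1) (log2 fold change -4.78 ± 0.84, SE, adjusted p = 2.02e-06). Its partner subunit *Mep1a* was at 0 to 72.8 CPM (median 32.4) in intestine and 12.7 to 285 CPM (median 194) in rectum and was not called (log2 fold change 2.48 ± 1.07, SE, adjusted p = 0.234). The peptide transporter *Slc15a1* also was not called, at 0 to 799.6 CPM (median 142) in intestine and 0 to 481 CPM (median 142) in rectum (log2 fold change -0.40 ± 0.81, SE, adjusted p = 0.823). Between 12 and 16 members of the list were called when a library was left out.

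**Figure D3:**
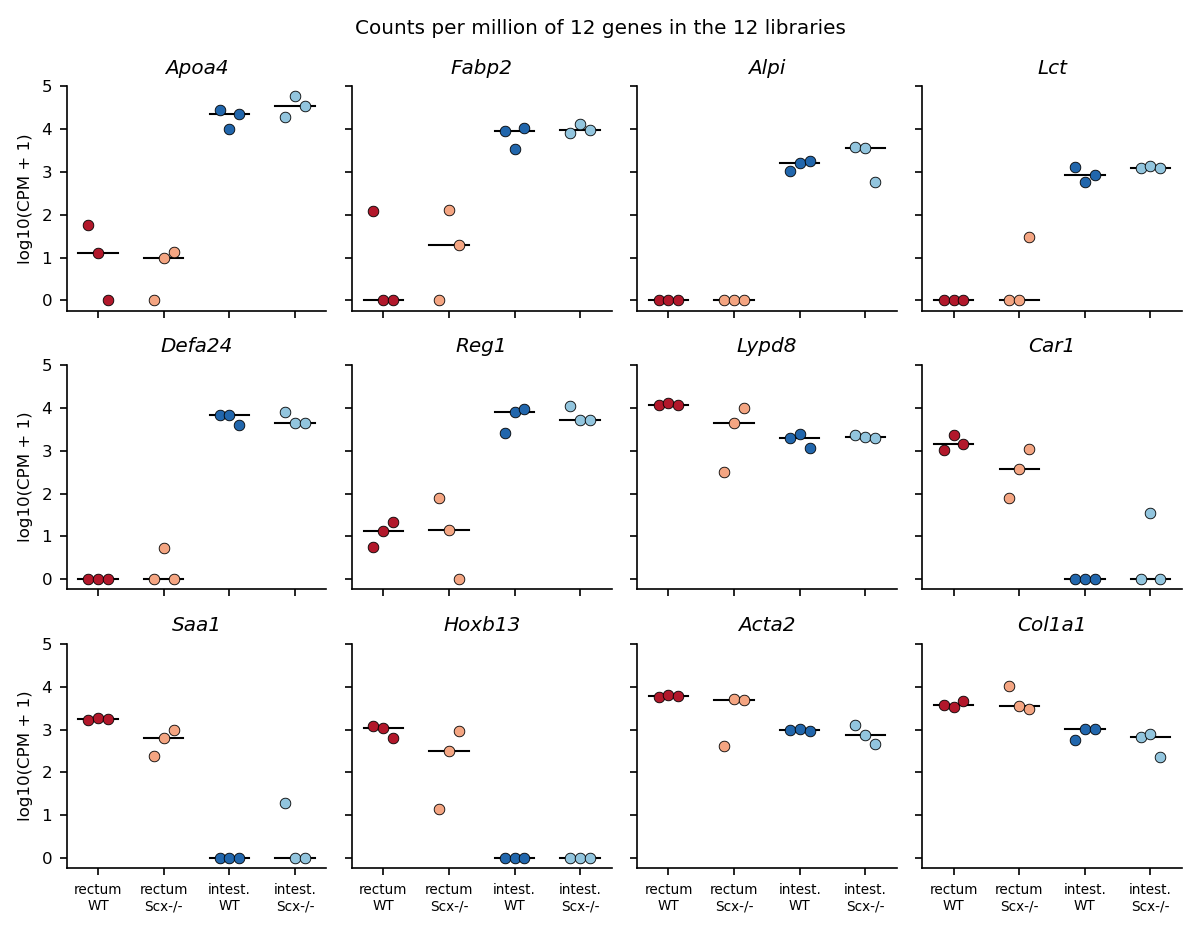
Points give log10(CPM + 1) of 12 genes in each of the 12 libraries, by tissue and genotype (WT, wild-type), with the median of the 3 replicates as a bar. *Apoa4*, *Fabp2*, *Alpi*, *Lct*, *Defa24* and *Reg1* are high in all 6 intestine libraries, *Car1*, *Saa1* and *Hoxb13* in rectum, and the lowest Scx-/- rectum point of *Lypd8* and *Acta2* is replicate 1.

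The sequence just before the start of the genes was searched for motifs of gut transcription factors. For 11152 of the 15482 genes tested, RefSeq promoter windows on GRCm38.p6 were at hand, and the 250 bases before the start were searched on both strands for 5 short motifs. An AGATAA or TGATAA, the site read by GATA factors, stood in 29.6% of 169 windows of genes higher in intestine, in 10.4% of 154 windows of genes higher in rectum and in 10.7% of all windows. GTTAAT, a part of the HNF1 site, stood in 13.6%, 5.19% and 4.27%. AAAGTCC, a core of the HNF4 site, stood in 17.2%, 1.95% and 3.85%. TTTATTG or TTTATGG, read by CDX factors, stood in 14.2%, 5.84% and 4.62%, and TATAAA, the TATA box, in 23.1%, 17.5% and 8.12%. Windows of genes higher in intestine were also poorer in G and C (median 52.4%) than those of genes higher in rectum (56.4%) or all genes (59.2%), and the motifs consist mostly of A and T. The part of base composition in these shares was not tested, and a match of letters is not a binding site.

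The windows shown here belong to the gene with the largest difference in the list of digestion (*Alpi*), of drug metabolism (*Cyp3a11*), of lipid genes with a window at hand (*Apoa4*) and of colonic epithelium (*Saa1*). They read 5′ to 3′ on the gene's own strand up to the base before the start, with matches to any of the 5 motifs in capitals. *Alpi* (chr1:87101607-87101856, minus strand) holds a reversed TATA box at 33 to 28 bases and an HNF4 core at 18 to 12 bases before the start, and *Cyp3a11* (chr5:145879855-145880104, minus strand) an HNF4 core at 108 to 102 and a TATA box at 234 to 229 bases before it. The windows of *Apoa4* (chr9:46240594-46240843, plus strand) and *Saa1* (chr7:46742981-46743230, minus strand) hold none of the 5.
Alpi: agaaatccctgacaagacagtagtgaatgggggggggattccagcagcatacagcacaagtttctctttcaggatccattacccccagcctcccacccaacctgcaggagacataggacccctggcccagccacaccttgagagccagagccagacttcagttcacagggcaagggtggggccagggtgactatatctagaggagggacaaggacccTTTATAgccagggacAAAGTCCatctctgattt
Cyp3a11: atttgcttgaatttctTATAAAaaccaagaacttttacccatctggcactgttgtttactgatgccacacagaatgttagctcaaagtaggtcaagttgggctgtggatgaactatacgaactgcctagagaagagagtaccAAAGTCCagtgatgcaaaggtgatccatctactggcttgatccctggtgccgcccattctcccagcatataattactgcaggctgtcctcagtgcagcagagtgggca
Apoa4: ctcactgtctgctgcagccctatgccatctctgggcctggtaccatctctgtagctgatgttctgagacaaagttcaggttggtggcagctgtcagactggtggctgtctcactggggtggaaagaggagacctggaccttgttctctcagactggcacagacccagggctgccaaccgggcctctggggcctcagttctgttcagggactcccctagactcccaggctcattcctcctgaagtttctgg
Saa1: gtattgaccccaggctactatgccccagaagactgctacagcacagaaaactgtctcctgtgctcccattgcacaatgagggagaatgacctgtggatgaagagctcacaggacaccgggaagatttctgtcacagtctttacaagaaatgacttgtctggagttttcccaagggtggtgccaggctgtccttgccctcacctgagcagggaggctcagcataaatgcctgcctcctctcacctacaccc

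Uptake of minerals and vitamins was less uniform. Of 13 members tested 5 were higher in intestine, with a median log2 fold change of -2.20. *Slc46a1*, the proton-coupled folate transporter, was at 299.9 to 1214 CPM (median 437) in intestine and 0 to 146 CPM (median 17.3) in rectum (log2 fold change -3.26 ± 0.76, SE, adjusted p = 0.0015). *S100g*, the calcium binding protein calbindin-D9k, ranged widely within intestine, at 323 to 18929.6 CPM (median 5130.5), against 0 to 368 CPM (median 16.1) in rectum (log2 fold change -6.72 ± 1.44, SE, adjusted p = 0.0394), and its call was lost without any of 7 libraries (adjusted p up to 0.0979, and 0.0886 without Scx-/- rectum replicate 1). *Amn*, part of the vitamin B12 receptor, was at 54.6 to 566 CPM (median 343) against 0 to 92 CPM (median 12) (log2 fold change -3.53 ± 0.94, SE, adjusted p = 0.0104), and *Heph*, a ferroxidase of iron export, at 37.7 to 966 CPM (median 271) against 0 to 78.0 CPM (median 6.01) (log2 fold change -3.46 ± 0.94, SE, adjusted p = 0.0129). The call of *Amn* was lost without wild-type intestine replicate 1, Scx-/- intestine replicate 2 or Scx-/- rectum replicate 2 (adjusted p up to 0.0629), and that of *Heph* without Scx-/- intestine replicate 2 (0.137) or Scx-/- rectum replicate 3 (0.0656). The calcium pump *Atp2b1* (log2 fold change -0.76 ± 0.72) and the vitamin D receptor *Vdr* (-1.18 ± 0.69) were not called. The number called was 1 to 5 over fits that left out a library, and 3 without Scx-/- rectum replicate 1.

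*Slc51a*, a subunit of the exporter that passes bile acids to the blood, was higher in intestine, at 0 to 1199 CPM (median 250.1) against 0 in rectum (at least 94.7-fold higher, adjusted p = 3.79e-08), and of 6 genes tested it was the only one called by edgeR. *Fabp6*, the ileal bile acid binding protein, was at 0 in all 6 intestine libraries and at 0 to 100.5 CPM (median 31.8) in rectum, with 46 counts in all (adjusted p = 0.0791). *Slc10a2*, the transporter that takes bile acids up in the ileum, was likewise at 0 in intestine and at 0 to 41.4 CPM (median 7.96) in rectum (adjusted p = 0.21). Neither was called by edgeR, DESeq2 gave no adjusted p for them, and the sampled intestine gave no read of these 2 markers of the ileum. *Nr1h4*, the bile acid receptor, was at 0 to 264 CPM (median 43.8) in intestine and had 3 counts in rectum (adjusted p = 0.133), and was called by DESeq2 as higher in intestine.

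Among 10 tested genes known from the change at weaning, 1 was called, *Arg2*, which was higher in intestine (adjusted p = 1.49e-11). The lysosomal protease *Ctsl* (log2 fold change 1.24 ± 0.82) and the antibody receptor *Fcgrt* (-0.57 ± 0.87) were not called.

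Drug and xenobiotic enzymes were higher in intestine for 10 of 21 members tested and in rectum for 0, with a median log2 fold change of -3.40. *Cyp3a11*, a cytochrome P450 that clears many drugs, was at 385 to 1819.7 CPM (median 909.5) in intestine and 0 in rectum (at least 284-fold higher, adjusted p = 5.26e-17). *Cyp2d26*, a P450 of another family, was at 673 to 1733 CPM (median 918) against 0 to 36.8 CPM (median 2.17) (log2 fold change -5.67 ± 0.78, SE, adjusted p = 1.29e-10). *Cyp3a13* showed a smaller difference, at 298 to 1033 CPM (median 706) against 0 to 221 CPM (median 53.4) (log2 fold change -3.16 ± 0.74, SE, adjusted p = 0.00159). All intestine values of these P450 genes exceeded all rectum values. Conjugating enzymes differed among themselves. The glutathione transferase *Gstm3* was at 566 to 1245 CPM (median 730.4) against 0 to 115 CPM (median 6.5) (log2 fold change -4.85 ± 0.82, SE, adjusted p = 6.37e-07), while its relative *Gstm1* was at 33.3 to 1169.8 CPM (median 344) in intestine and 505 to 1708 CPM (median 811) in rectum and was not called (log2 fold change 1.24 ± 0.59, SE, adjusted p = 0.3). The glucuronosyltransferase *Ugt2b34* also was not called (log2 fold change -1.17 ± 0.69, SE, adjusted p = 0.416).

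Paneth cell products marked the intestine. Of 14 members tested 6 were higher there and 0 in rectum, with a median log2 fold change of -5.09, and their summed level was 7429.9 to 15209 CPM in intestine and 0 to 362 in rectum. *Defa24*, an alpha-defensin, was at 3907 to 7879 CPM (median 5639) in intestine and had 1 count in rectum, in Scx-/- replicate 2 (ratio 6163-fold (95% exact counting interval 1106 to 243478), adjusted p = 6.95e-49). *Defa17*, a neighbour of the same family, was at 1235 to 2655 CPM (median 1829) against 0 (at least 738-fold higher, adjusted p = 2.38e-27). Defensin genes are near-identical copies, so the split of reads among them is uncertain, and *Defa22* had 20 counts in intestine and 0 in rectum (adjusted p = 0.0559). *Lyz1*, the Paneth cell lysozyme, was at 966 to 2889.7 CPM (median 1858) against 0 to 100.5 CPM (median 8.52) (log2 fold change -6.93 ± 0.72, SE, adjusted p = 6.37e-19). *Itln1*, a lectin that binds microbial sugars, was at 382 to 1321 CPM (median 804) against 0 to 241 CPM (median 4.6) (log2 fold change -4.33 ± 0.76, SE, adjusted p = 2.48e-06). The angiogenin *Ang4* was not called, at 0 to 526 CPM (median 66.8) in intestine and 0 to 34.7 CPM (median 0) in rectum (log2 fold change -3.29 ± 1.54, SE, adjusted p = 0.286). *Pnliprp2*, which pancreas also makes, is among the 6 called members.

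The Reg family of secreted antimicrobial lectins had 3 of 7 members higher in intestine. *Reg1* was at 2600.2 to 10954 CPM (median 6599) in intestine and 0 to 76.2 CPM (median 12.5) in rectum (log2 fold change -8.49 ± 0.61, SE, adjusted p = 6.08e-40), with no overlap. *Reg3b* was at 15.7 to 2564 CPM (median 322) against 0 (at least 475-fold higher, adjusted p = 1.34e-14), and *Reg3a* at 0 to 576 CPM (median 125) against 0 (at least 113-fold higher, adjusted p = 1.65e-04). Some Reg genes are also made by pancreas, whose genes varied among the intestine libraries as given further on. *Reg3g* was not called (log2 fold change -3.45 ± 1.52, SE, adjusted p = 0.253), but had adjusted p = 0.00749 without Scx-/- rectum replicate 1. *Reg4*, made by hormone cells and goblet-like cells of the colon, was at 0 to 354 CPM (median 303) in rectum and 0 to 346 CPM (median 209) in intestine and was not called (log2 fold change 0.99 ± 0.84, SE, adjusted p = 0.555).

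**Figure D4:**
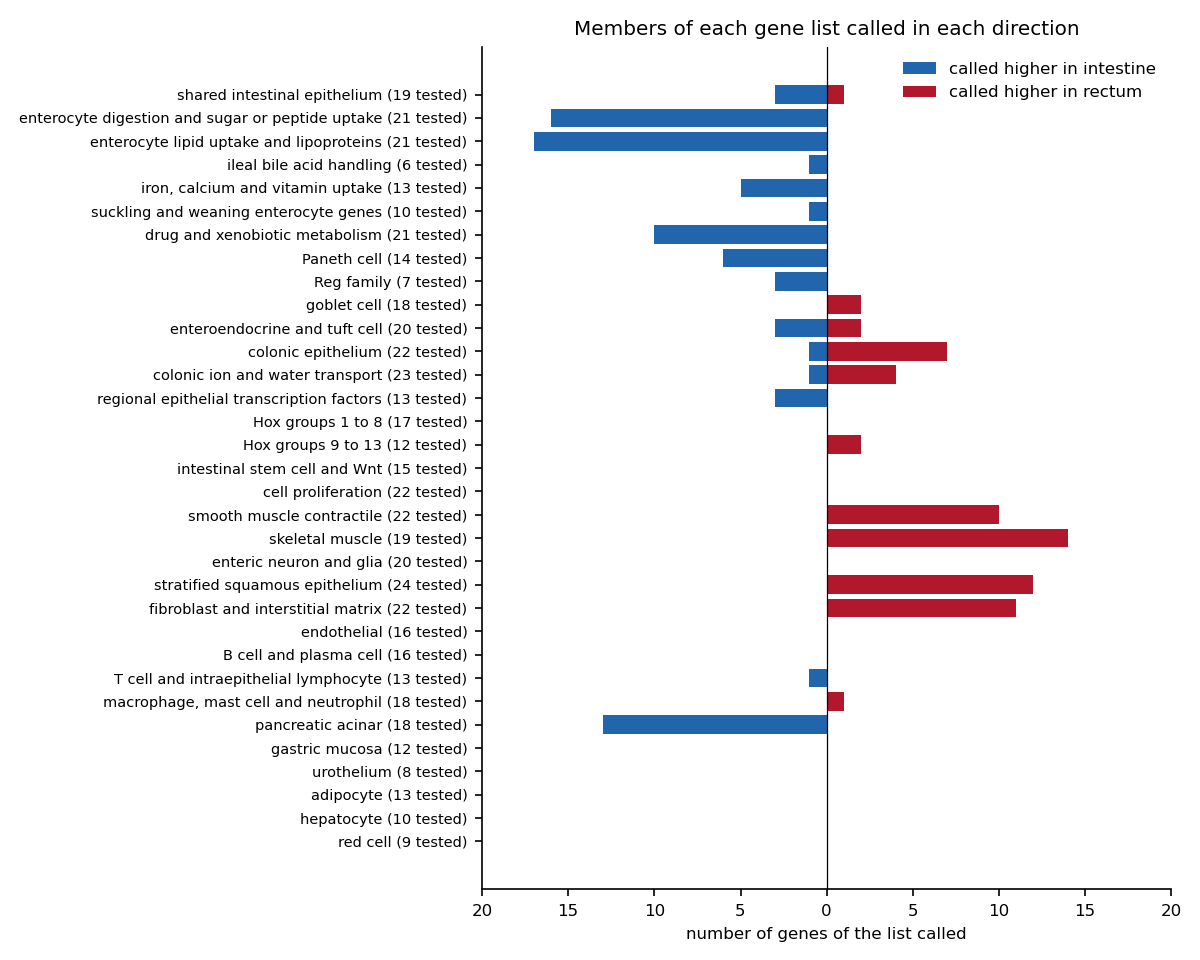
Bars give the number of genes of each list called higher in intestine (left, blue) and higher in rectum (right, red), with the number of members tested beside the list's name. The lists of digestion and lipids reach 16 and 17 to the left, and those of skeletal muscle and squamous epithelium 14 and 12 to the right.

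Genes expected throughout the intestinal epithelium went both ways, with a median log2 fold change of 0.16 over 19 tested. By edgeR, 3 members were higher in intestine and 1 in rectum. DESeq2 called 4 and 2, adding *Cdh17*, a cadherin, in intestine and *Krt18*, a simple epithelial keratin, in rectum. At an unadjusted p under 0.05 by edgeR, 6 were higher in intestine and 4 in rectum. *Vil1*, which bundles actin in microvilli, was at 950.1 to 1966 CPM (median 1165) in intestine and 0 to 313 CPM (median 199.7) in rectum (log2 fold change -2.57 ± 0.61, SE, adjusted p = 0.00164). *Myo1a*, a brush border myosin, was at 868 to 1853 CPM (median 1211) against 50.8 to 392 CPM (median 268) (log2 fold change -2.23 ± 0.60, SE, adjusted p = 0.0112), and *Krt20*, a keratin of mature cells, at 565 to 1905 CPM (median 929) against 0 to 563 CPM (median 272) (log2 fold change -2.0 ± 0.60, SE, adjusted p = 0.0338). *Krt19*, a simple epithelial keratin, was higher in rectum, at 1029 to 6712 CPM (median 3738) against 1037 to 2261 CPM (median 1469) (log2 fold change 1.44 ± 0.45, SE, adjusted p = 0.0483). These calls were weak except that of *Vil1*, since *Krt20* was lost without any of 6 libraries (adjusted p up to 0.218, and 0.065 without Scx-/- rectum replicate 1) and *Krt19* without any of 9 (up to 0.157), and that of *Myo1a* was lost without wild-type rectum replicate 3 (0.0586). With the epithelial scaling, which rests on this list, *Vil1* was called and *Myo1a* (adjusted p = 0.0574), *Krt20* (0.0953) and *Krt19* (0.359) were not. *Lgals4*, a galectin of gut epithelium, was at 165 to 3849 CPM (median 3699) in rectum and 1799 to 4717 CPM (median 2754) in intestine (log2 fold change 0.16 ± 0.43, SE, adjusted p = 0.876). *Phgr1* was not called either (log2 fold change 1.38 ± 0.50, SE, adjusted p = 0.119), but had adjusted p = 0.009 without Scx-/- rectum replicate 1.

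Goblet cell genes overlapped in summed level, 966 to 18407 CPM in rectum (lowest in Scx-/- replicate 1) and 7497 to 12101 in intestine. Of 18 tested, edgeR called 2 higher in rectum and 0 in intestine. DESeq2 called 3 and 1, which added *Creb3l1* and *Bcas1* in rectum and *Slc12a8* in intestine and left out *Sycn* (adjusted p = 0.148). At an unadjusted p under 0.05 by edgeR, 4 were higher in rectum and 1 in intestine. *Agr2*, which folds mucin, was at 165 to 1366 CPM (median 1152) in rectum and 75.5 to 652 CPM (median 227) in intestine (log2 fold change 2.08 ± 0.63, SE, adjusted p = 0.0382), and *Sycn*, a protein of secretory granules that pancreas also makes, at 12.7 to 1636 CPM (median 563) against 0 to 473 CPM (median 39.3) (log2 fold change 2.66 ± 0.72, SE, adjusted p = 0.0116). The call of *Agr2* was lost without any of 8 libraries (adjusted p up to 0.208), and that of *Sycn* without wild-type intestine replicate 1, wild-type rectum replicate 2 or Scx-/- rectum replicate 3 (up to 0.174). With the epithelial scaling neither was called (adjusted p = 0.294 and 0.239). *Zg16*, a lectin of the mucus layer (log2 fold change -0.36 ± 0.43), and *Tff3*, the trefoil peptide secreted with mucin (-0.52 ± 0.46), were not called and their ranges overlapped.

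Of 20 genes of hormone-making and tuft cells tested, 2 were higher in rectum and 3 in intestine by edgeR. Higher in rectum were *Pyy*, peptide YY of the distal gut, at 0 to 362 CPM (median 279.7) against 0 to 264 CPM (median 0) (log2 fold change 4.01 ± 1.18, SE, adjusted p = 0.0301), and *Insl5*, a hormone of colonic L cells, at 0 to 623 CPM (median 139.8) against 0 (at least 31.5-fold higher, adjusted p = 0.00126). Higher in intestine were *Sct*, secretin, at 0 to 394 CPM (median 128) against 0 in rectum (at least 45.1-fold higher, adjusted p = 0.00117), *Nts*, neurotensin, at 0 to 299.9 CPM (median 70.1) against 0 (at least 27.1-fold higher, adjusted p = 0.00902), and *Gip*, the glucose-dependent insulinotropic peptide, at 0 to 346 CPM (median 52.0) against 0 (at least 72.2-fold higher, adjusted p = 0.00811). Each of the 5 genes was at 0 in at least 1 library of the tissue where it was high. The general secretory markers *Cpe* (log2 fold change 0.63 ± 0.81) and *Chgb* (-1.13 ± 0.99) were not called, and neither edgeR nor DESeq2 called the hormones *Cck* (-1.90 ± 1.26), *Sst* (-2.67 ± 1.28) and *Ghrl* (-3.48 ± 1.76). The call of *Pyy* was lost without any of 7 libraries (adjusted p up to 0.139), with the epithelial scaling (0.212) and by DESeq2 (0.129), that of *Nts* without Scx-/- intestine replicate 2 (0.218), and that of *Gip* without wild-type intestine replicate 1 (0.0771) or wild-type rectum replicate 1 (0.057).

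Colonic epithelium genes were higher in rectum for 7 of 22 members tested and in intestine for 1, with a median log2 fold change of 1.89. In wild-type libraries alone 7 were called higher in rectum and 2 in intestine, and in Scx-/- libraries alone 2 and 1. The list summed to 21421 to 26085 CPM in wild-type rectum and 4994 to 11094 in intestine. In Scx-/- rectum the sum was 1474 to 16017 CPM, which overlapped intestine. *Car1*, a carbonic anhydrase of the large intestine, was at 76.2 to 2273 CPM (median 1039) in rectum and had 1 count in intestine (ratio 671-fold (95% exact counting interval 120.1 to 26529.8), adjusted p = 2.68e-14). *Saa1*, serum amyloid A, was at 241 to 1816 CPM (median 1344) in rectum and had 1 count in intestine (ratio 799-fold (95% exact counting interval 143 to 31579), adjusted p = 3.22e-16). For both, even the lowest rectum library, Scx-/- replicate 1, lay above every intestine library. *Lypd8*, which keeps flagellated bacteria off the colonic surface, was at 318 to 13013 CPM (median 10596) in rectum and 1160.5 to 2481 CPM (median 2066) in intestine (log2 fold change 2.10 ± 0.41, SE, adjusted p = 3.43e-05), and the only rectum library within the range of intestine or below it was Scx-/- replicate 1. *Prdx6*, an antioxidant peroxiredoxin, was at 279.5 to 4305 CPM (median 2522) against 188 to 766 CPM (median 353) (log2 fold change 2.40 ± 0.56, SE, adjusted p = 0.00148). Scaled to the epithelial list, *Lypd8* (adjusted p = 0.143) and *Prdx6* (0.124) were no longer called, and the list had 5 members higher in rectum. In Scx-/- libraries alone *Lypd8* (adjusted p = 0.199) and *Prdx6* (0.498) were not called either.

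Not every member of that list followed it. *Guca2b*, uroguanylin, which sets salt and water secretion, was higher in intestine, at 1021 to 6830.2 CPM (median 4460.1) against 0 to 261 CPM (median 58.1) (log2 fold change -5.98 ± 0.61, SE, adjusted p = 5.47e-20). *Slc26a3*, the chloride and bicarbonate exchanger, was at 0 to 201 CPM (median 117) in rectum and 0 to 604 CPM (median 126) in intestine and was not called (log2 fold change -0.53 ± 0.97, SE, adjusted p = 0.799). *Mptx1*, a pentraxin, was at 0 to 1452 CPM (median 755) against 0 to 788 CPM (median 139) (log2 fold change 2.08 ± 0.70, SE, adjusted p = 0.0799, and 0.0266 without Scx-/- rectum replicate 1), and *Ms4a8a* also was not called (log2 fold change 1.39 ± 0.74, SE, adjusted p = 0.365).

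Ion and water transport had 4 of 23 members higher in rectum and 1 in intestine. *Atp12a*, the colonic proton and potassium pump, was at 0 to 457 CPM (median 291) in rectum and 0 in intestine (at least 59.9-fold higher, adjusted p = 1.23e-05). *Car2*, a cytosolic carbonic anhydrase, was at 102 to 769.7 CPM (median 594) against 0 to 394 CPM (median 24.5) (log2 fold change 3.19 ± 0.80, SE, adjusted p = 0.00445). *Hsd11b2*, which shields the aldosterone receptor from glucocorticoids, was at 0 to 462 CPM (median 265) against 0 to 85.2 CPM (median 0) (log2 fold change 4.03 ± 1.10, SE, adjusted p = 0.0126), and *Best2*, an anion channel of goblet cells in the colon, at 0 to 131 CPM (median 64.6) against 0 (at least 19.5-fold higher, adjusted p = 0.0341). The sodium and proton exchanger *Slc9a3* was higher in intestine, at 0 to 382 CPM (median 141) against 0 (at least 52.8-fold higher, adjusted p = 1.43e-04). *Best2* lost its call without any of 9 libraries (adjusted p up to 0.107), *Hsd11b2* without Scx-/- rectum replicate 2 or 3 (up to 0.0613), and *Slc9a3* without Scx-/- intestine replicate 1 (0.0521). With the epithelial scaling only *Atp12a* of the 4 was called, with adjusted p = 0.124 for *Car2*, 0.138 for *Hsd11b2* and 0.0688 for *Best2*. The kinase *Sgk1* (log2 fold change -1.05 ± 0.53) and the sodium pump subunit *Atp1b1* (-0.55 ± 0.48) were not called.

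Transcription factors that mark position along the gut were mostly low. Of 13 regional factors tested 3 were higher in intestine. *Onecut2*, a factor of the duodenum, was at 54.6 to 649 CPM (median 399) against 0 to 15.9 CPM (median 0) (log2 fold change -5.47 ± 1.07, SE, adjusted p = 4.59e-05). *Gata4* was at 0 to 302 CPM (median 98.7) against 0 (at least 17.1-fold higher, adjusted p = 0.013), and *Gata5* at 0 to 377 CPM (median 54.5) against 0 (at least 26.6-fold higher, adjusted p = 0.00589). With 38 and 59 counts in all, the 2 GATA factors rested on few reads, and the calls were lost without Scx-/- rectum replicate 2 (0.0627) or 3 (0.07) for *Gata4* and without Scx-/- intestine replicate 3 (0.193) for *Gata5*. The epithelial factors *Klf4* (log2 fold change 1.35 ± 0.68) and *Klf5* (1.29 ± 0.74) were not called.

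Of 12 tested genes of Hox groups 9 to 13, which pattern the hind end of the body, 2 were higher in rectum by edgeR and by DESeq2. *Hoxb13*, among the most posterior Hox genes, was at 12.7 to 1200.2 CPM (median 793) in rectum and 0 in all 6 intestine libraries (at least 184-fold higher, adjusted p = 6.04e-13). *Hoxd13* was at 0 to 427 CPM (median 137) in rectum and 0 in intestine (at least 62.8-fold higher, adjusted p = 7.94e-05). Both were lowest in Scx-/- replicate 1, at 12.7 and 0 CPM, and remained called without it (adjusted p = 2.82e-15 and 2.64e-05). *Hoxd11* and *Hoxd10* were also at 0 in intestine, with 39 and 30 counts in rectum, and were not called (adjusted p = 0.0705 and 0.117). The genes of Hox groups 9 to 13 summed to 191 to 1719.8 CPM in rectum, and in intestine they had reads in wild-type replicate 2 alone (94.2 CPM). Of 17 tested genes of Hox groups 1 to 8 none was called by edgeR with all 12 libraries and TMM scaling, and 1 was higher in rectum with the epithelial scaling. None of the 2 with an adjusted p by DESeq2 was called. By edgeR, 3 had an unadjusted p under 0.05, all higher in rectum, to be read against 10.4% of all genes. *Hoxa7* had 35 counts in rectum and 0 in intestine (adjusted p = 0.0608), and *Hoxa5* 35 and 3 (adjusted p = 0.236).

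**Figure D5:**
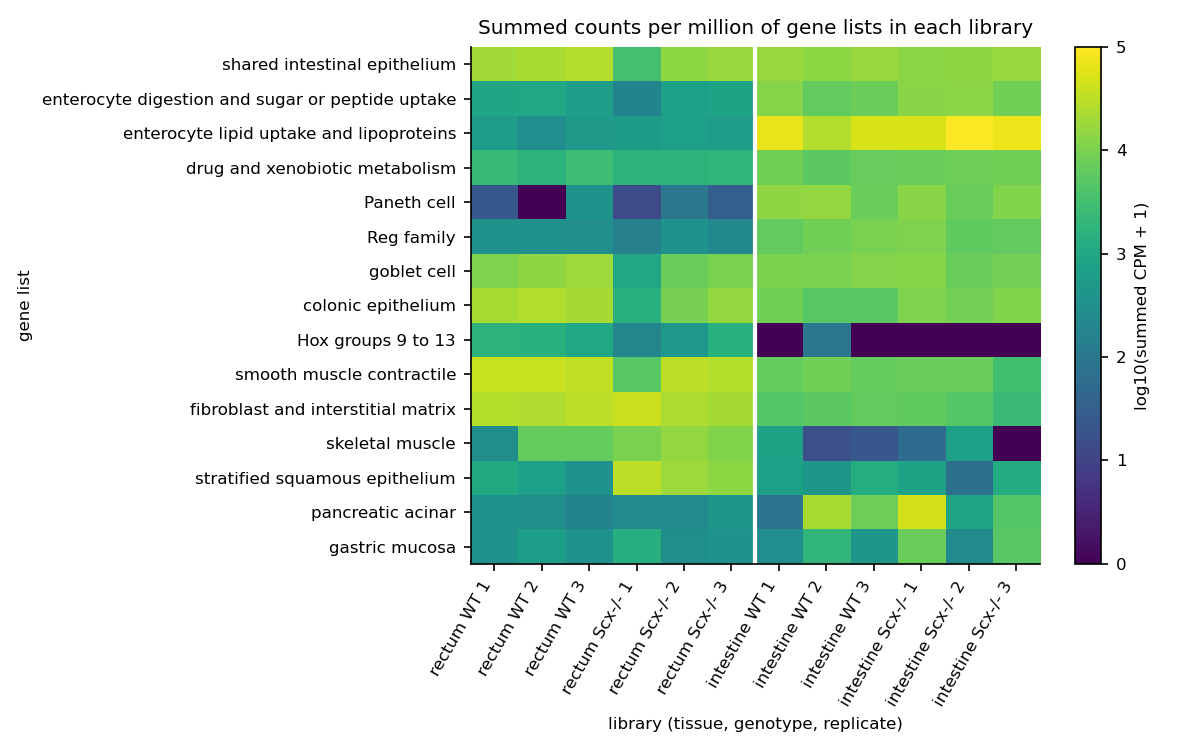
Colour gives the log10 of the summed CPM + 1 of 15 gene lists (rows) in each of the 12 libraries (columns, rectum left of the white line). Lipid, Paneth cell and digestion genes are bright in the 6 intestine libraries, matrix genes in the 6 rectum libraries, squamous genes in the 3 Scx-/- rectum libraries, and pancreatic genes vary between intestine libraries.

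Of 22 smooth muscle genes tested 10 were higher in rectum and 0 in intestine by edgeR, and 13 and 0 by DESeq2, with a median log2 fold change of 2.15. *Acta2*, smooth muscle actin, was at 419 to 6422 CPM (median 5369.9) in rectum and 453 to 1274 CPM (median 949) in intestine (log2 fold change 2.47 ± 0.46, SE, adjusted p = 1.04e-05). *Actg2*, the enteric smooth muscle actin, was at 12.7 to 5767 CPM (median 4449) against 226 to 801 CPM (median 683) (log2 fold change 2.68 ± 0.48, SE, adjusted p = 4.73e-06). Only Scx-/- rectum replicate 1 lay within or below the intestine range for these actins. *Tagln*, transgelin, was at 432 to 4350.1 CPM (median 3357) against 0 to 659.6 CPM (median 423) (log2 fold change 3.11 ± 0.52, SE, adjusted p = 4.26e-07), and *Tpm2*, a tropomyosin, at 839 to 3844 CPM (median 3103) against 33.3 to 997 CPM (median 537) (log2 fold change 2.62 ± 0.52, SE, adjusted p = 5.12e-05). The kinase *Mylk*, which starts contraction, was at 305 to 2479 CPM (median 1428) against 319 to 1133 CPM (median 974) and was not called (log2 fold change 0.89 ± 0.52, SE, adjusted p = 0.418). *Flna*, a filamin that crosslinks actin, missed the threshold (log2 fold change 1.70 ± 0.53, SE, adjusted p = 0.0501) and was called by DESeq2. Without Scx-/- rectum replicate 1, 11 members were called. Scaled to the epithelial list, 3 were called and *Acta2* (adjusted p = 0.0592) and *Actg2* (0.0608) were not.

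Fibroblast and matrix genes gave 11 of 22 members higher in rectum and 0 in intestine (median log2 fold change 2.62), and in 11 members all rectum values exceeded all intestine values (1.07% of all genes). *Col1a1*, a chain of collagen I, was at 3041 to 10393 CPM (median 3659) in rectum and 226 to 1022 CPM (median 711) in intestine (log2 fold change 2.85 ± 0.49, SE, adjusted p = 8.62e-07). *Col1a2*, its partner chain, was at 2207 to 9135 CPM (median 4052) against 100 to 997 CPM (median 556) (log2 fold change 3.36 ± 0.50, SE, adjusted p = 6.54e-09). *Col3a1*, the fibrillar collagen of distensible tissue, was at 3563 to 4675 CPM (median 4343) against 264 to 1235 CPM (median 697) (log2 fold change 2.89 ± 0.49, SE, adjusted p = 7.51e-07), and *Sparc*, a collagen binding protein, at 2926 to 4681 CPM (median 3998) against 302 to 1438 CPM (median 1030) (log2 fold change 2.12 ± 0.47, SE, adjusted p = 5.53e-04). Unlike the smooth muscle genes, these were not low in Scx-/- rectum replicate 1, whose summed matrix level of 39969.5 CPM was the highest of all. Elastin, *Eln* (log2 fold change 1.59 ± 0.70, SE, adjusted p = 0.25), and the collagen VI chain *Col6a2* (log2 fold change 1.05 ± 0.63, SE, adjusted p = 0.428) were not called. With the epithelial scaling 8 members were called.

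Skeletal muscle genes were higher in rectum for 14 of 19 members tested and in intestine for 0, with a median log2 fold change of 4.70. *Acta1*, skeletal actin, was at 129 to 4485 CPM (median 2299) in rectum and 0 to 666 CPM (median 27.3) in intestine (log2 fold change 3.95 ± 0.77, SE, adjusted p = 4.00e-04). *Ckm*, muscle creatine kinase, was at 64.4 to 1672 CPM (median 852) against 0 to 98.2 CPM (median 0) (log2 fold change 4.46 ± 0.82, SE, adjusted p = 7.25e-06). *Mylpf*, a fast myosin light chain, was at 9.20 to 1582 CPM (median 795) against 0 to 33.3 CPM (median 0) (log2 fold change 5.80 ± 0.85, SE, adjusted p = 2.53e-09), and *Tnnc2*, fast troponin C, at 0 to 1222 CPM (median 684) against 0 to 51.7 CPM (median 0) (log2 fold change 4.70 ± 0.89, SE, adjusted p = 1.86e-05). Rectum was uneven, since the list summed to 289.7 CPM in wild-type replicate 1 and to 6471 to 15183 CPM in the other 5 libraries. In intestine the sum was 0 to 799 CPM, so wild-type rectum replicate 1 lay within the range of intestine. *Mb* (145 and 1 counts, adjusted p = 0.248) and *Neb* (113 and 1 counts, adjusted p = 0.053) were not called. *Acta1* lost its call without Scx-/- rectum replicate 1 (adjusted p = 0.244) or Scx-/- intestine replicate 2 (0.0507), while 14 members were called without the former. With all 12 libraries *Acta1* also lost it with DESeq2's size factors (0.0934), library totals (0.103), filterByExpr (0.0508) or no genotype term (0.0541). In wild-type libraries alone 2 members were called, and in Scx-/- libraries alone 11.

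Stratified squamous epithelium genes had 12 of 24 members higher in rectum and 0 in intestine, with a median log2 fold change of 4.90. The list summed to 14419 to 32042 CPM in the Scx-/- rectum libraries, to 362 to 1104 in wild-type rectum, and to 66.6 to 1224 in intestine. Wild-type rectum and intestine thus overlapped. In Scx-/- libraries alone 16 members were called and in wild-type libraries alone 0, and the interaction of tissue and genotype was called for *Krt14* and *Ly6d* among the members. The genotypes were not compared over the list as a whole. *Krt10*, a keratin of cornifying layers, was at 0 to 3748 CPM (median 1187) in rectum and 0 to 218 CPM (median 0) in intestine (log2 fold change 5.41 ± 0.84, SE, adjusted p = 2.87e-08). *Krtdap*, a partner of differentiating keratinocytes, was at 0 to 2175 CPM (median 671) and had 1 count in intestine (ratio 785-fold (95% exact counting interval 141 to 31024), adjusted p = 8.94e-06). *Krt5*, the keratin of basal cells, was at 455 to 4980.3 CPM in Scx-/- rectum and 0 in wild-type rectum, with 1 count in intestine (adjusted p = 7.44e-06). *Krt15*, another basal keratin, was at 269 to 8068 CPM in Scx-/- rectum, 0 in wild-type rectum and 0 in intestine (adjusted p = 2.03e-10). Without Scx-/- rectum replicate 1 neither *Krt5* (adjusted p = 0.0556) nor *Krt15* (0.0825) was called, and 9 members of the list were. With all 12 libraries, DESeq2 called 3 of the 12 members that edgeR called, did not call 8 and gave no adjusted p for 1, *Krt15*. *Perp*, a desmosome protein that simple epithelium also has, was not called (log2 fold change 1.5 ± 0.62, SE, adjusted p = 0.207). How much of the dissected rectum reached the anal canal is not given by the labels and was not tested.

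Genes of pancreatic acinar cells, which are not cells of the gut wall, were higher in intestine for 13 of 18 members tested. Their summed level there ran from 82.7 CPM in wild-type replicate 1 to 45728 CPM in Scx-/- replicate 1, and in rectum from 181 to 424 CPM. *Cel*, a lipase, was at 0 to 2184 CPM (median 851) in intestine and 0 in rectum (at least 160.1-fold higher, adjusted p = 4.07e-14). *Prss2*, a trypsinogen, was at 2.58 to 2220 CPM (median 723) against 0 (at least 218-fold higher, adjusted p = 6.40e-17). *Cpa1* and *Cpb1*, which are procarboxypeptidases, were at 5.17 to 2857 CPM (median 417) and 2.58 to 2165 CPM (median 238) against 0 (at least 159-fold and at least 171-fold higher). *Cela2a*, an elastase, was at 2.58 to 5332 CPM (median 819) and had 1 count in rectum, and *Try4*, another trypsin gene, was at 10.3 to 2657 CPM (median 476) with 2 counts in rectum. The trypsin-like *2210010C04Rik*, at 5.17 to 5550 CPM (median 268) against 0, lost its call without Scx-/- rectum replicate 1 (adjusted p = 0.065) or Scx-/- intestine replicate 3 (0.0909). With edgeR's filter for low counts, filterByExpr, *Cel* (adjusted p = 0.106), *Prss2* (0.0838), *Cpa1* (0.0682), *Cpb1* (0.0939) and *2210010C04Rik* (0.0945) were not called. In wild-type libraries alone *Prss2* was not called either (0.159). *Ctrb1* had the widest range, 2.58 to 14739 CPM (median 1335), and was not called (adjusted p = 0.085), nor was *Cela1* (log2 fold change -2.45 ± 1.05, SE, adjusted p = 0.275). Of 12 gastric mucosa genes none was called by edgeR with all 12 libraries and TMM scaling. None of the 7 with an adjusted p by DESeq2 was called. At an unadjusted p under 0.05, 4 were higher in intestine, to be read against 4.42% of all genes. Fits that left out a library called at most 1, higher in intestine. The sum of the gastric genes likewise varied in intestine, from 233 to 7515 CPM, against 312 to 1410.2 in rectum. The gastric peptides *Tff1* (log2 fold change -2.21 ± 0.75, SE, adjusted p = 0.0846) and *Gkn1* (log2 fold change -1.86 ± 0.72, SE, adjusted p = 0.169) were not called. The lists of digestion, lipids and Paneth cells were high in every intestine library, also in wild-type replicate 1 with its 82.7 CPM of pancreatic genes.

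Lists of 5 other cell types or states had no member called by edgeR with all 12 libraries. None of 15 stem cell and Wnt genes was called, among them *Sox9* (log2 fold change 3.25 ± 1.16, SE, adjusted p = 0.115), and none of 22 proliferation genes, among them *Mcm6* (-0.54 ± 1.00) and *Hmgb2* (0.65 ± 0.91), with a median log2 fold change of 0.06. None of 20 genes of enteric neurons and glia was called, such as the neuronal *Stmn2* (0.97 ± 1.31), and none of 16 endothelial genes, such as *Plvap* (-1.64 ± 1.13) and *Lyve1* of lymph vessels (-0.64 ± 1.23). B cell and plasma cell genes had 0 of 16 called, with the invariant chain *Cd74* at -0.43 ± 0.95 and the antibody light chain *Igkc* at 1 count in rectum and 52 in intestine (adjusted p = 0.166). *Olfm4*, a stem cell list member, was higher in intestine without Scx-/- rectum replicate 1 (adjusted p = 5.42e-07) and in wild-type libraries alone (2.56e-07). DESeq2 called *Sox9* and the replication gene *Mcm7* higher in rectum and none of the other members for which it gave an adjusted p. At an unadjusted p under 0.05, 7 members of these 5 lists were higher in rectum and 6 higher in intestine, shares that are to be read against 10.4% and 4.42% of all genes.

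Among 13 T cell genes and 18 genes of macrophages, mast cells and neutrophils tested, edgeR called 1 member of each list. DESeq2 called both and also the T cell and stromal marker *Thy1* as higher in rectum. *Gzma*, a granzyme of intraepithelial lymphocytes, was higher in intestine, at 0 to 377 CPM (median 134) against 0 to 23.0 CPM (median 0) (log2 fold change -5.01 ± 1.32, SE, adjusted p = 0.00868), and lost its call without wild-type intestine replicate 1 (adjusted p = 0.0598) or Scx-/- intestine replicate 3 (0.0534). *Ly6g*, a neutrophil surface gene of which relatives are made by gut epithelium, was at 0 to 213 CPM (median 121) in rectum and 0 in intestine (at least 33.5-fold higher, adjusted p = 0.00324). Members that edgeR did not call had wide errors, such as *Thy1* (log2 fold change 3.46 ± 1.20, SE, adjusted p = 0.0985), the chemokine *Ccl5* with 93 counts in intestine and 0 in rectum (adjusted p = 0.112), and the macrophage genes *C1qa* (0.77 ± 1.41) and *Cd68* (0.52 ± 3.35). With all 12 libraries and TMM scaling, edgeR called no member among 8 urothelium, 13 adipocyte, 10 hepatocyte and 9 red cell genes tested. In Scx-/- libraries alone it called 1 urothelium and 1 adipocyte member, and in wild-type libraries alone 1 hepatocyte member, all higher in rectum. Fits that left out a library called at most 1 adipocyte member. DESeq2 called *Krt7*, *Car3* and *Ttr* higher in rectum. An unadjusted p under 0.05 by edgeR was reached by 10 members of these lists higher in rectum and 3 higher in intestine, to be read against 10.4% and 4.42% of all genes. The most abundant members were *Krt7* (log2 fold change 2.80 ± 1.05, SE, adjusted p = 0.144), *Upk1a* (0.61 ± 1.5), *Lpl* (1.98 ± 0.87), *Pnpla2* (-0.06 ± 0.86), *Ttr* (log2 fold change 3.66 ± 1.28, SE, adjusted p = 0.103), *Trf* (1.18 ± 1.63), *Hba-a1* (-0.30 ± 0.75) and *Hbb-bs* (-0.31 ± 1.18), with log2 fold changes and their SE in parentheses. Urothelial genes summed to 1334 CPM in Scx-/- rectum replicate 1 and to 156 to 442 CPM in the other rectum libraries.

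Beyond the lists, the rectum had genes with no read in intestine and no overlap. *Wfdc2*, a secreted protease inhibitor of mucosa, was at 595 to 3316 CPM (median 684) in rectum (at least 204-fold higher, adjusted p = 2.76e-17). *Tgm3*, a transglutaminase of epithelial barriers, was at 25.4 to 950.1 CPM (median 623) (at least 155-fold higher, adjusted p = 1.49e-11), and *2610528A11Rik* at 127 to 938 CPM (median 586) (at least 155-fold higher). The calcium binding protein *S100a14* was at 191 to 535 CPM (median 365) (at least 99.8-fold higher), the stress gene *Nupr1* at 100.5 to 628 CPM (median 328) (at least 92.9-fold higher) and the annexin *Anxa8* at 213 to 368 CPM (median 249.6) (at least 62.1-fold higher). *Mboat1*, an acyltransferase of phospholipids, was at 50.8 to 482 CPM (median 212) (at least 53.4-fold higher), *Gsdmc4*, a gasdermin, at 38.1 to 409 CPM (median 136) (at least 48.0-fold higher) and *Thbs4*, a thrombospondin of tendon and muscle matrix, at 129 to 421 CPM (median 218) (at least 46.3-fold higher). All of these had an adjusted p of at most 1.21e-04, and all 6 rectum libraries held reads of each.

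Whether the tissue difference depended on genotype was tested by an interaction term. It was called for 4 of 15482 genes (0.0258%). For *Krt14*, a basal keratin, the Scx-/- rectum libraries were at 414 to 3227 CPM, wild-type rectum and Scx-/- intestine at 0, and wild-type intestine at 0 to 33.6 (adjusted p = 5.23e-06). *Ly6d*, a surface protein of squamous epithelium, was at 322 to 1842 CPM in Scx-/- rectum, 0 in wild-type rectum, 2.58 to 55.0 in wild-type intestine and 0 to 36.4 in Scx-/- intestine (adjusted p = 0.0103). *1600014C10Rik* was at 4.33 to 1079.9 CPM in Scx-/- rectum, 0 in wild-type rectum, 74.5 to 152 in wild-type intestine and 0 in Scx-/- intestine (adjusted p = 0.00292). In all 3, reads in rectum came from Scx-/- mice only. *Olfm4*, a marker of crypt cells, was at 1283 CPM in Scx-/- rectum replicate 1 and 0 in the other 5 rectum libraries, 234 to 644 in wild-type intestine and 0 to 437 in Scx-/- intestine (adjusted p = 0.0279).

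These 4 calls were fragile. Without Scx-/- rectum replicate 1 *Olfm4* (adjusted p = 1.00), *1600014C10Rik* (0.703) and *Ly6d* (0.546) were not called, and *Olfm4* was then higher in intestine by the tissue test (adjusted p = 5.42e-07). *Krt14* kept adjusted p = 0.0177 without that library and lost the call without wild-type intestine replicate 1 (adjusted p = 1.00). By DESeq2, which gave no adjusted p for *1600014C10Rik*, 0 genes were called for the interaction, with 487 at an unadjusted p under 0.05, where edgeR had 1215. Depth differed with genotype within intestine, and with all libraries thinned to 26500 counts 0 genes were called (725 at an unadjusted p under 0.05).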

How the data were processed

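Per the labels and the methods of the study, the authors extracted total RNA with TRIzol, added a barcode to each sample at reverse transcription (SuperScript II), made second strands, built pooled Nextera XT libraries and sequenced them on an Illumina sequencer. The authors aligned reads with Bowtie2 at default settings to mm10 and counted them per gene symbol with HTSeq. What they deposited are raw counts, with no normalization. Versions, annotation, strand setting and any use of molecular identifiers are not stated in the labels or methods, so counting intervals and floors cover counting error only.

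Of 41575 genes in the table, 26093 were at 0 in all 12 libraries and were removed. The 6 rectum and 6 intestine libraries were fitted together in edgeR 4.0.16 (R 4.3.3; TMM scaling, robust quasi-likelihood test) with tissue and genotype as terms, and the interaction was tested in a second fit. Adjusted p-values are Benjamini-Hochberg values over all genes tested, two-sided, with a threshold of 0.05. A log2 fold change is rectum over intestine, with its standard error (SE). For a gene with no count in a tissue, a fold is given against a floor of 3 counts over the 6 libraries of that tissue as a lower bound, and for 1 to 3 counts the ratio has a 95% exact counting interval. CPM uses library totals. Whether the tissues overlap was read from CPM.

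Alternatives were DESeq2 1.42.0, its size factors (RLE), library totals, scaling to the list of epithelial genes, filterByExpr, thinning each library to 26500 counts, no genotype covariate, replicate number as a block, each genotype alone, leaving out each library, and leaving out together Scx-/- rectum replicate 1 and wild-type intestine replicate 1, the 2 libraries that an earlier look at these data had placed nearest another tissue. A bias-adjusted quasi-likelihood fit and the removal of ribosomal and other small structural RNA were added after the data were seen. Named genes are, in each of 33 lists, up to 4 called members per direction by level and up to 2 abundant members not called, the 12 largest changes per direction without overlap and with a mean of at least 50 CPM, the genes called for the interaction, and 13 genes chosen by name. Some genes that these rules name are not reported here. *Mcm7*, *Car3*, *Cdh17*, *Krt18*, *Creb3l1*, *Bcas1* and *Slc12a8*, which DESeq2 called, *Cck*, *Sst* and *Ghrl*, and genes named for their direction in the other genotype or for their place were added after their values were seen. The members and lists were chosen with earlier results of these data known. Counts were also simulated with the same library totals and, for each gene, 1 mean share of counts in all libraries before any change. The changed genes were drawn only from the more abundant genes, so detection among genes with few counts was not simulated. Of these, 52 of 100 genes changed 16-fold and 4 of 100 changed 4-fold were called, with 1 of 14438 unchanged genes. Gene positions come from GENCODE on GRCm38, and promoters from RefSeq on GRCm38.p6.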

Additional observations from a re-analysis of the deposited data

Results flagged for a closer look

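The 4 genes whose tissue difference depended on genotype were *Krt14* (adjusted p of the interaction 5.23e-06), *1600014C10Rik* (0.00292), *Ly6d* (0.0103) and *Olfm4* (0.0279), by edgeR.

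In 12 of 68 groups of 6 libraries, a total or summed level of a gene list had a library apart from the rest by Dixon's ratio of gap to range at the 95% level, which chance gives in about 1 of 20 groups. Scx-/- rectum replicate 1 was such a library for 4 lists. It was lowest in smooth muscle genes (ratio 0.69, 4968 CPM against 27204 to 37357 CPM in the other rectum libraries). It was highest in stem cell and Wnt genes (0.68, 1893 against 241 to 771 CPM), in gastric mucosa genes (0.73, 1410.2 against 312 to 613 CPM) and in urothelium genes (0.76, 1334 against 156 to 442 CPM). Among wild-type rectum libraries, replicate 3 was highest in Paneth cell genes (0.74, 362 against 0 to 95.3 CPM) and replicate 2 in B cell genes (0.73, 301 against 80.4 to 139.8 CPM).

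In intestine, wild-type replicate 1 had the highest total (0.72, 386890 against 26500 to 127356 counts). Wild-type replicate 2 was lowest in ion and water transport genes (0.65, 3557 against 5945 to 7206 CPM), highest in B cell and plasma cell genes (0.73, 1029 against 33.3 to 297 CPM) and the only intestine library with reads of Hox groups 9 to 13 (1.00, 94.2 CPM against 0). Wild-type replicate 3 was highest in Hox groups 1 to 8 (0.75, 159.7 against 0 to 39.3 CPM) and Scx-/- replicate 1 in hepatocyte genes (0.75, 382 against 7.85 to 100 CPM).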

How the results depend on the processing

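The 430 genes called became 240 in wild-type libraries alone (84 higher in rectum) and 150 in Scx-/- libraries alone (88 and 62), fits with fewer libraries. DESeq2 gave 348 higher in rectum. With the replicate number as a block 263 genes were called, 120 higher in rectum and 143 higher in intestine, and 1 for the interaction. The labels do not tie the numbers to animals. Same-numbered libraries had correlations of -0.02 to 0.03 over 6 pairs, and 1 of 6 libraries correlated best with its own number. In libraries this shallow, such values cannot decide whether same-numbered libraries came from the same mouse. At the study's thresholds, 2294 genes became 791 with filterByExpr, 3862 without the genotype term, 1185 with the block and 1086 in wild-type libraries alone. With filterByExpr 468 of 3171 genes were called. Interaction calls fell from 4 to 0 by DESeq2, with thinned libraries and without the 2 libraries nearest another tissue. Leaving out a library gave 328 to 426 genes, 153 to 232 higher in rectum, 164 to 211 higher in intestine, 1865 to 2259 at the study's thresholds and 1 to 5 for the interaction. *Krt5* reversed in wild-type libraries alone (log2 fold change -2.0, adjusted p = 0.636). The cause of these shifts was not tested beyond the number of genes or libraries.

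Of 88 genes that the naming rules gave and that were called, all but *Krt5* (87) had 1 direction in all fits run, and 36 were called in all of up to 25 fits. At these depths the test reached few 4-fold changes in a simulation that changed only the more abundant genes, so a gene not called is not shown to be equal. The Scx-/- intestine libraries were the limit, and a gene absent there may lie under the floor of 26.9 CPM for 3 counts over the group.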

Other observations

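Neighbouring genes were called together in 10 places with at least 3 called genes each within 100 kb of the next, and in each place all had 1 direction. *Apoa1*, *Apoc3* and *Apoa4* lie side by side on chromosome 9 (46228580 to 46243459, GRCm38), *Reg3b*, *Reg3a* and *Reg1* on chromosome 6 (78370657 to 78428667), and *Pnlip*, *Pnliprp1* and *Pnliprp2*, a family of lipases, on chromosome 19 (58652498 to 58777534). All of these were higher in intestine. Higher in rectum were the calcium binding proteins *S100a4*, *S100a6*, *S100a14* and *S100a16* on chromosome 3 (90526856 to 90624181), the fast myosins *Myh1*, *Myh4* and *Myh8* on chromosome 11 (67200052 to 67308634), and *Tnni2*, *Tnnt3*, *H19* and *Igf2* on chromosome 7 (142441808 to 142666816), where *Igf2* and *H19* are imprinted growth genes beside troponins of fast muscle. Neighbours of a family have similar sequences, and the split of reads between them was not tested.

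Set beside the other 14 tissues, 150 of the 218 genes higher in intestine (68.8%) had the highest mean CPM of all 16 tissues in intestine, where 10.3% of all genes tested did. A further 21 were highest in liver (9.63%, against 3.32% of all genes tested), 18 in adipose (8.26% against 0.956%) and 15 in kidney (6.88% against 6.18%). Among the 18 was the trypsin-like *2210010C04Rik*, with a mean of 50126 CPM in the libraries labelled adipose. The share highest in adipose is thus not a count of fat cell genes, and what those libraries hold was not tested. Of the 212 genes higher in rectum, 95 (44.8%) were highest in rectum, against 12% of all genes tested, 26 in bladder (12.3% against 6.27%) and 21 in muscle (9.91% against 2.51%). The difference between rectum and intestine was part of what ranks these tissues, so the shares are a description.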
